A study of Homo sapiens with 2 samples.

Results

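The chromosome 17 peaks of OTX2 in D283 tumorspheres were compared between the short and the long arm. Members were all peaks of the deposited list on chromosome 17, and a peak belonged to the short arm when its summit lay below 22.8 Mb and to the long arm when it lay above 26.8 Mb (GRCh38). The rule took 4606 of 137412 peaks, of which 622 were on the short arm and 3984 on the long arm, and 0 lay between the bounds.

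D283 is an established MB cell line, and the untreated tumorspheres were grown in neural stem cell medium and expressed OTX2. Chromatin was crosslinked, sheared and precipitated with an OTX2 antibody to give 1 ChIP library, and chromatin without antibody gave 1 input library. The ChIP library kept 61259377 fragments after duplicate removal and the input library 22521186. With 1 library of each kind there was no replicate error and no test of a difference, so all intervals are 95% intervals that cover counting error only, and neighbouring peaks or genes are not replicates.

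OTX2 is a homeodomain transcription factor of the developing forebrain, midbrain and retina that is also expressed in Group 3 and Group 4 MB. Homeodomain proteins of its class bind DNA words that begin with TAAT and end with CC or CT. In these MB subgroups the short arm of chromosome 17 is often lost and the long arm gained, frequently as an isochromosome with a breakpoint in the proximal short arm. Copy number was not measured here, and its part in every arm difference given below was not tested.

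The promoters shown hold the summits of highest fold enrichment among the RefSeq promoters whose sequence was at hand. They carry the readout at single sites from the low-input part of the short arm, its proximal part and the long arm. Each is the 250 bases before a RefSeq start in GRCh38.p14, written 5′ to 3′ on the gene's strand, and capitals mark the words TAATCC or TAATCT on either strand (GGATTA or AGATTA when read from the other strand). PRPSAP2 (chr17:18865219-18865468, plus strand, an inner start of the gene) and SMCR8 (chr17:18315043-18315292, plus strand) lie below 19 Mb on the short arm. B9D1 (chr17:19362724-19362973, minus strand, an inner start) lies above 19 Mb on the short arm, and SMARCD2 (chr17:63842686-63842935, minus strand) and SMIM36 (chr17:55511453-55511702, minus strand) lie on the long arm.
PRPSAP2: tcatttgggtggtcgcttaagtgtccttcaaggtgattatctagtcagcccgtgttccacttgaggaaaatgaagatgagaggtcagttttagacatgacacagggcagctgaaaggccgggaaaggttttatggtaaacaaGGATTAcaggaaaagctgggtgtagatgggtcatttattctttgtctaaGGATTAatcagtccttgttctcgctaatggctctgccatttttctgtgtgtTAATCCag
SMCR8: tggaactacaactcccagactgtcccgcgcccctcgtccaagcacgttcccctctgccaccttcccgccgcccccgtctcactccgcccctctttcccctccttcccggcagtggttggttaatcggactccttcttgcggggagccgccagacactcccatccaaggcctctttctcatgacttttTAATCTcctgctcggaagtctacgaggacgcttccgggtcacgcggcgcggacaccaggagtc
B9D1: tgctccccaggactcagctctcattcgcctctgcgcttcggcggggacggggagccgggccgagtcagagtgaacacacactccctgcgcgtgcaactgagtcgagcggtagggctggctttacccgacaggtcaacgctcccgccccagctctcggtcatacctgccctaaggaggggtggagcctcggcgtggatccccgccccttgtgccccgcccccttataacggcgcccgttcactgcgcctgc
SMARCD2: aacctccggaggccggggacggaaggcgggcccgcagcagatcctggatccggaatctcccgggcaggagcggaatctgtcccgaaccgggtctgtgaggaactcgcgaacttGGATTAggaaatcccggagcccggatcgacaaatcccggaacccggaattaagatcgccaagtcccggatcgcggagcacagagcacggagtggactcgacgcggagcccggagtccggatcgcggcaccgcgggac
SMIM36: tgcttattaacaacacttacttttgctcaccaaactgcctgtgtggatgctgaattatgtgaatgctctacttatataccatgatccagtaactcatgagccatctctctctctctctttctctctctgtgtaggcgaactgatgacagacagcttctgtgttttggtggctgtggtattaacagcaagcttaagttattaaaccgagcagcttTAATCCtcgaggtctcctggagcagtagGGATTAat

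PRPSAP2 encodes a partner of the enzymes that make phosphoribosyl pyrophosphate. Its inner start had a summit 52 bp upstream with 117 ChIP fragments (exact Poisson interval 96.8 to 140.2) and was enriched 17.4-fold, and 3 TAATCC words stood in the 250 bases. SMCR8, whose product acts with C9orf72 in autophagy, had a summit 86 bp upstream with 66 fragments (51.0 to 84.0), was enriched 9.93-fold, and 1 TAATCT word began 63 bp upstream. By fold enrichment these were the highest summits below 19 Mb among the RefSeq promoters whose sequence was at hand. Those promoters cover 824 of 1169 chromosome 17 protein-coding genes, so higher summits at other promoters are not included. Both summits stood on the lowest local input that the peak calling allows.

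B9D1, which encodes a protein of the ciliary transition zone, had a summit 235 bp upstream with 47 fragments (34.5 to 62.5), 5.57-fold enriched, and held 0 of the searched words. SMARCD2, a subunit of SWI/SNF chromatin remodelling complexes, had 282 fragments (250.0 to 316.9), a fold enrichment of 30.3 and 1 TAATCC word on the opposite strand beginning 137 bp upstream. SMIM36, a small membrane protein gene, had 404 fragments (365.6 to 445.4) at a summit 40 bp upstream, a fold enrichment of 26.9 and 2 TAATCC words. Both long-arm promoters had more fragments than either short-arm promoter below 19 Mb. Each was picked as highest by fold enrichment, from 214 long-arm windows with a summit and from 51 below 19 Mb. These values therefore do not compare the arms.

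Across RefSeq windows of 300 bases (250 before and 50 after a start), 10.6% of 22199 protein-coding windows held either word. On chromosome 17 the share was 8.38% of 346 short-arm windows (Wilson 95% interval 5.90% to 11.8%) and 9.17% of 796 long-arm windows (7.36% to 11.4%), with intervals that overlapped. A summit fell in 16.2% of the short-arm windows (12.7% to 20.4%) and in 26.9% of the long-arm windows (23.9% to 30.1%), against 22.2% of all windows. Of the 56 short-arm windows with a summit, 12 held a word (21.4%, 12.7% to 33.8%), as did 24 of the 214 on the long arm (11.2%, 7.65% to 16.1%), and these intervals overlapped, against 788 of 4919 such windows in all (16.02%). TAATCC stood in 10.7% (5.00% to 21.5%) of the short-arm and 9.35% (6.13% to 14.0%) of the long-arm windows with a summit, against 9.84% of all such windows. TAATCT stood in 6 of 56 on the short arm (10.7%, 5.00% to 21.5%) and 4 of 214 on the long arm (1.87%, 0.729% to 4.71%). In all such windows it stood in 350 of 4919 (7.115%, 6.43% to 7.87%). The TAATCT intervals of the arms did not overlap, but that of the short arm included the share of all windows. Only the long arm lay below that share, with few windows behind it. The median GC content of the windows was 64.8% on the short arm, 63.0% on the long arm and 62.3% in all.

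The long arm was more densely covered by OTX2 peaks than the short arm. The short arm had 28.1 peaks per Mb (exact Poisson interval 25.9 to 30.4) over 22.1 Mb from its first to its last peak, and the long arm 70.8 per Mb (68.6 to 73.0) over 56.3 Mb, a ratio of 2.52 (2.31 to 2.75). The other autosomes had 47.6 per Mb, so the arms of chromosome 17 lay on either side of them. The typical distance between neighbouring summits was 13.7 kb on the short arm and 6.93 kb on the long arm (medians).

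Called peaks of the long arm were also higher. A pileup was read back as ChIP fragments, since 1 fragment adds 0.735 to it, and the median height was 48 fragments on the short arm (44 to 51, quartiles 34 and 78.8, range 16 to 391) and 61 on the long arm (59 to 62, quartiles 40 and 109, range 16 to 417). The ratio of the medians was 1.27 (1.19 to 1.39). A call needs more fragments where more input lies below a summit, as it did on the long arm. Weak peaks are thus cut off at a greater height there, and the medians are not fully like for like. Among all peaks of the list, 23.4% reached 100 fragments, compared with 105 short-arm peaks (16.9%) and 1123 long-arm peaks (28.2%). Per Mb this was 4.74 on the short arm and 20.0 on the long arm, a ratio of 4.21 (3.44 to 5.19), larger than that of all peaks.

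The local input moved with the density. Local input is the background coverage that the peak calling expected at a summit, the highest of several averages of the input library around it, and was worked back from the pileup and the fold enrichment. It cannot be below the genome-wide background, which appears as a floor of 3.99, and a peak counted as at the floor when its local input lay within 1% of that value. In the whole list 32.9% of peaks stood at the floor. On the short arm 399 of 622 peaks did so (64.2%, Wilson 95% interval 60.3% to 67.8%), and on the long arm 191 of 3984 (4.79%, 4.17% to 5.50%), a difference of -59.35 points (-63.08 to -55.44, Newcombe interval). The median local input was 3.99 on the short arm and 7 on the long arm, a ratio of 1.76. Because an input below the floor cannot be seen in the list, the short-arm median is an upper limit and this ratio a lower limit.

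Fold enrichment showed the opposite order. Its median was 6.25 on the short arm (5.95 to 6.63) and 5.60 on the long arm (5.46 to 5.73), a ratio of 0.897 (0.840 to 0.947). With peaks under a fold enrichment of 5 left out, the ratio turned to 1.06 (0.997 to 1.11). The long arm had more fragments at a summit and more input below them, and the ratio of both, with 1 added to each, was lower there. At the floor the fold enrichment is taken against the genome-wide background and not against the input of the site.

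Between the whole arms, the position of peaks relative to genes differed less than their number. Introns of protein-coding genes held 47.9% of short-arm summits (44.01% to 51.8%) and 49.5% of long-arm summits (47.9% to 51.0%), exons held 8.20% and 7.71%, and 43.9% and 42.8% lay outside such genes. Summits within 5 kb before or 2 kb after a TSS made up 19.4% of the short arm (16.5% to 22.7%) and 17.7% of the long arm (16.5% to 18.9%). On the short arm 80.2% of these promoter-proximal summits were at the floor and 50.9% of those outside genes and away from a TSS. On the long arm the same shares were 4.68% and 4.87%, so the arm difference in local input was present in both kinds of location. Within the parts of the short arm described next the locations were closer, with 92.2% and 86.6% below 19 Mb and 11.1% and 7.22% above it. Position itself differed between these parts. Introns held 53.6% of summits below 19 Mb and 34.1% above it, and 37.5% and 59.3% lay outside protein-coding genes. Summits near a TSS made up 23.4% (19.7% to 27.6%) and 9.89% (6.35% to 15.1%), against 17.7% on the long arm.

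The short arm was not uniform. A split at 19 Mb, chosen after the values along the arm were seen, left 440 peaks below and 182 above it. Below 19 Mb there were 23.5 peaks per Mb (21.4 to 25.8), a median of 43 fragments (41 to 47) and 384 peaks at the floor (87.3%, 83.8% to 90.1%). From 19 Mb to the last peak of the arm there were 55.4 peaks per Mb (47.7 to 64.1), a median of 58.5 fragments (50 to 73) and 15 peaks at the floor (8.24%, 5.06% to 13.1%). Peaks of at least 100 fragments numbered 51 below (2.73 per Mb) and 54 above (16.4 per Mb), although the upper part is much shorter.

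In density, height and local input the proximal short arm was thus closer to the long arm than to the rest of its own arm. Against the proximal part, the long arm had 1.28 times the peak density (1.10 to 1.49), a ratio of median heights of 1.04 (0.834 to 1.22) and a ratio of median local inputs of 1.03 (1.00 to 1.17). Against the part below 19 Mb the same ratios were 3.01 (2.73 to 3.33), 1.42 (1.29 to 1.49) and 1.76. Since the split was placed where the values change, these are descriptions of where the change lies.

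**Figure D1:**
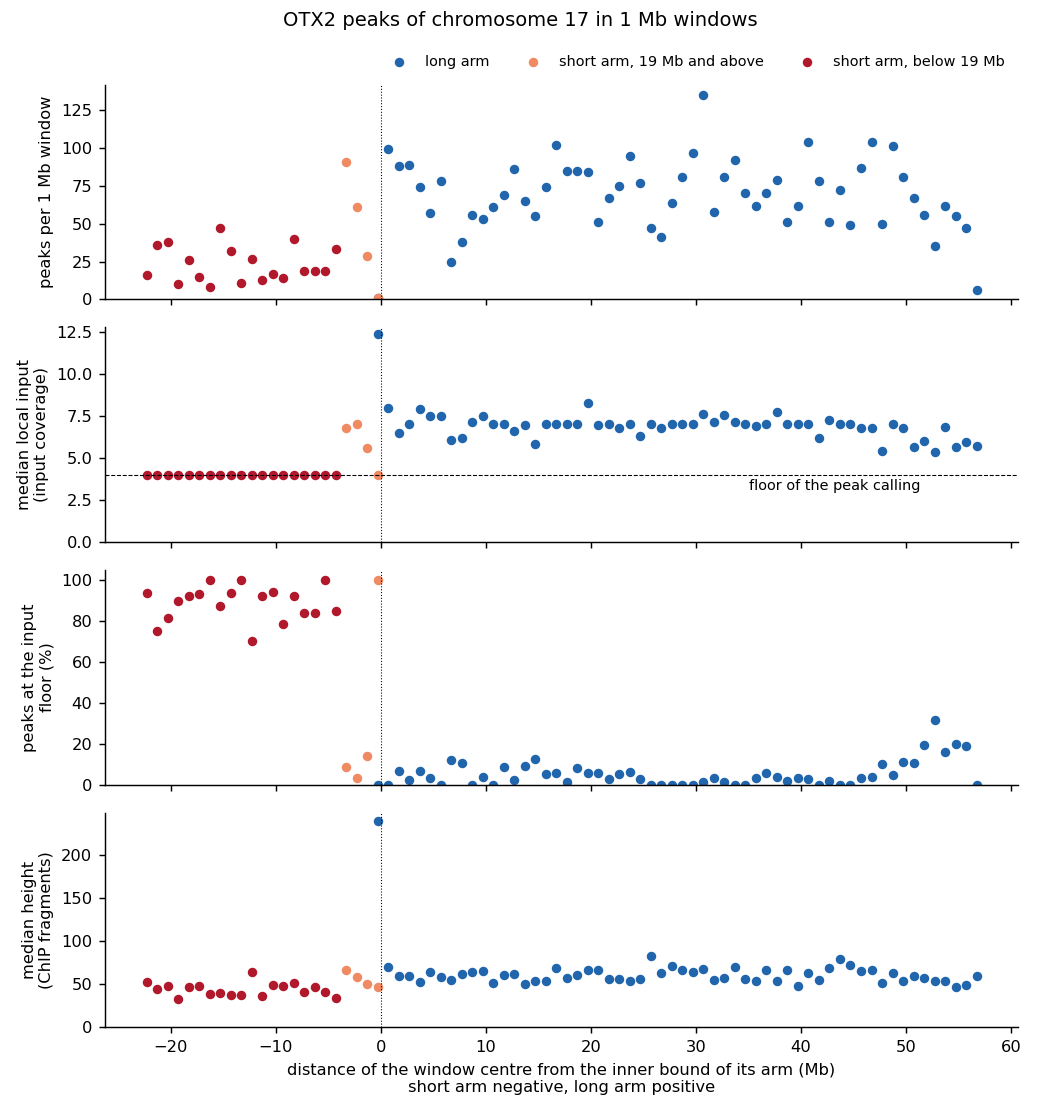
Peaks per 1 Mb window, median local input (input coverage), share of peaks at the input floor (%) and median height (ChIP fragments) are plotted against the distance of the window from the inner bound of its arm in Mb, short arm negative and long arm positive, with 1 point per window holding a peak. All 19 windows of the short arm below 19 Mb sit on the floor, which the dashed line marks, while the whole windows of the long arm have medians between 5.38 and 8.29.

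In windows of 1 Mb the change was abrupt. Below 19 Mb the 19 windows held between 8 and 47 peaks (median 19), the median local input was at the floor in every one, and between 70.4% and 100% of their peaks were at the floor. The window from 19 to 20 Mb held 91 peaks with a median local input of 6.79 and 8 peaks at the floor, and the window from 20 to 21 Mb held 61 peaks with 7 and 2 at the floor. The 56 whole windows of the long arm held between 25 and 135 peaks (median 70), and the median local input was at the floor in 0 of them. The peak counts of single windows overlapped between the arms, whereas the median local inputs of the windows below 19 Mb and of the long arm did not.

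The change lay beside GRAP, which encodes a GRB2-like adaptor of signalling in lymphocytes. From 18.8 to 18.9 Mb 6 of 7 peaks were at the floor, the next 0.1 Mb held 0 peaks, and in the 0.1 Mb beginning at 19 Mb 3 of 9 peaks were at the floor. From 19.1 to 19.2 Mb it was 1 of 9. With 20 peaks on each side, the largest difference stood between the summits at 19052640 and 19057535, upstream of the TSS of GRAP, with 85.0% at the floor before and 5.00% after. GRAP and GRAPL are near-identical copies in duplicated sequence, so the assignment of reads between them is uncertain and the place of the change is known only to this neighbourhood.

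The last window of the short arm, from 22 to 23 Mb, held 1 peak, at the floor. At the outer end of the long arm more peaks were at the floor than in its middle. Of the 10 long-arm windows with over 10% of peaks at the floor, 7 started at or beyond 76 Mb, and the highest share was 31.4% from 79 to 80 Mb, where 35 peaks had a median local input of 5.38. Even there the share at the floor was below the 70.4% that was lowest among the short-arm windows below 19 Mb.

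**Figure D2:**
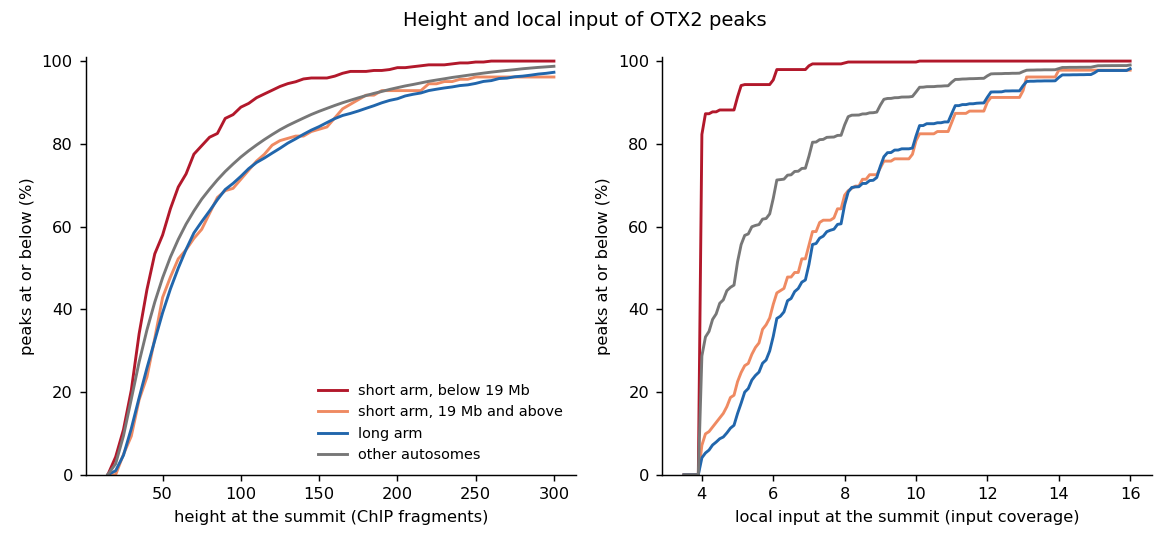
The share of peaks (%) at or below each height (ChIP fragments, left) and each local input (input coverage, right) is plotted for the short arm below 19 Mb, the short arm at 19 Mb and above, the long arm and the other autosomes, as 1 line each. At a local input of 4 the line of the short arm below 19 Mb stands at 82.3%, that of the proximal short arm at 7.14% and that of the long arm at 4.12%.

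Among the arms of the autosomes, the 2 arms of chromosome 17 stood near opposite ends. The other chromosomes were split at their longest stretch without a peak, and 39 arms had at least 200 peaks. The long arm of chromosome 17 had the highest density of them, ahead of the second arm of chromosome 1 (62.8 per Mb), the third highest median local input and the second lowest share at the floor, after 1.93% on the second arm of chromosome 1. The short arm was second lowest in density, between the first arm of chromosome 7 (25.8 per Mb) and its second arm (29.4 per Mb), and had the fourth highest share at the floor, after 86.5% and 85.2% on chromosome 7 and 74.1% on the second arm of chromosome 16. Gene density did not follow this order, since the short arm had 15.4 protein-coding genes per Mb and the long arm 14.8, the third and the fourth highest of the 39.

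**Figure D3:**
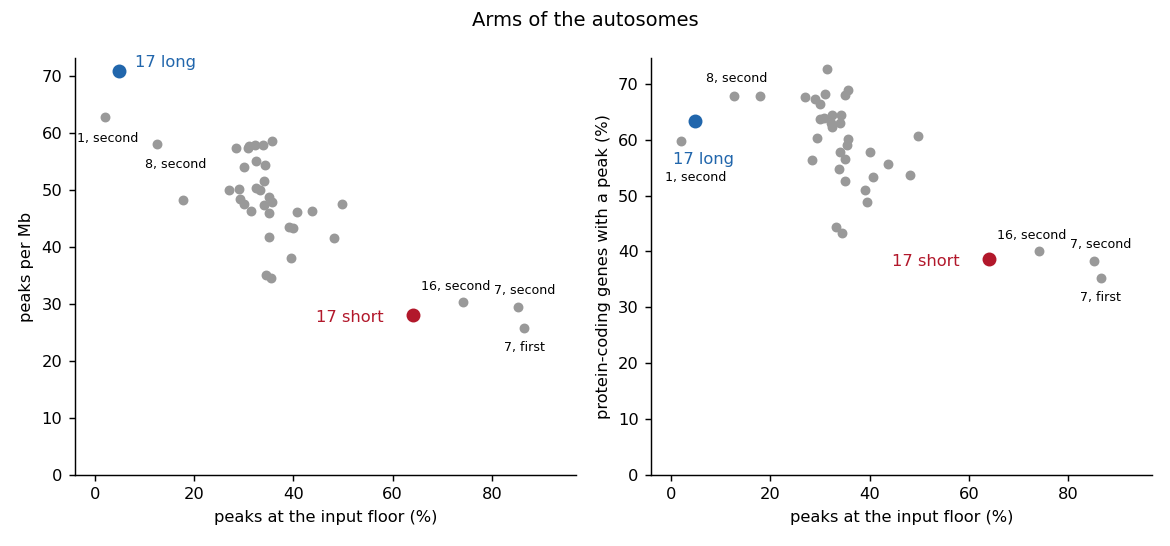
Each point is an arm of an autosome with at least 200 peaks, with the share of its peaks at the input floor (%) on the x axis and its peaks per Mb (left) or the share of its protein-coding genes that had a peak (%, right) on the y axis. The short arm of chromosome 17 (28.1 per Mb, 38.7% of genes) lies with both arms of 7 and the second arm of 16, and the long arm (70.8 per Mb, 63.4% of genes) lies at the other end of the x axis.

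Fewer genes of the short arm had an OTX2 peak near their TSS. A gene was counted when at least 1 bp of a peak lay within 5 kb before or 2 kb after the 5′ end of its GENCODE record, which held for 57.2% of 19881 protein-coding genes. On the short arm 132 of 341 genes had such a peak (38.7%, Wilson 95% interval 33.7% to 43.98%) and on the long arm 528 of 833 (63.4%, 60.1% to 66.6%), a difference of 24.7 points (18.4 to 30.6). With peaks below a fold enrichment of 5 left out, the difference was 14.9 points (8.98 to 20.4). Below 19 Mb it was 117 of 318 genes (36.8%, 31.7% to 42.2%), and from 19 Mb 15 of 23 (65.2%, 44.9% to 81.2%). The 4 arms with the lowest shares among the 39 were both arms of chromosome 7 (35.3% and 38.3%), the short arm of 17 and the second arm of 16 (40.05%), the same that had the highest shares of peaks at the floor.

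The peaks near these TSSs were also lower on the short arm. The strongest peak of a gene had a median of 41 fragments over the 132 short-arm genes (range 18 to 249) and 71 over the 528 long-arm genes (range 17 to 409), and it was at the floor in 113 and 33 of them. Over all summits near a TSS, where genes with several peaks do not count by their strongest alone, the medians were closer, 41 and 57. Below 19 Mb the highest at the end of a gene record was 99 fragments, and the proximal short arm ranged from 42 to 249 with a median of 69. The median distance from a TSS to the nearest peak edge over all genes, with or without a peak, was 8.79 kb on the short arm and 1.02 kb on the long arm. Medians over the genes that have a peak describe those genes only.

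The short-arm list of tumor suppressor, MB and chromatin genes held 17 genes, of which 8 had a peak (47.1%, 26.2% to 69.0%). KDM6B, a histone H3K27 demethylase, had the highest peak of the list, with 57 fragments at 281 bp upstream of its TSS and a fold enrichment of 8.61. KCTD11, which encodes an antagonist of Hedgehog signaling, had 44 fragments and 6.69 at 48 bp upstream. CTDNEP1, a phosphatase gene mutated in some Group 3 and Group 4 MB, had 42 fragments and 6.39. AURKB, a mitotic kinase, was lowest with 26 fragments and 4.03.

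PRPF8 (a splicing factor), MNT (a MAX partner) and NCOR1 (a corepressor) lay between these values, and 7 of the 8 peaks were at the floor. The exception was USP22, a deubiquitinase of the SAGA complex that lies beyond 19 Mb, with 44 fragments, a local input of 4.96 and a fold enrichment of 5.59. The 9 genes without a peak were YWHAE, CRK, RPA1, DPH1, HIC1, PAFAH1B1, MYBBP1A, MAP2K4 and FLCN. Among them the nearest peak edge was 3.68 kb from the TSS of PAFAH1B1 and 30.7 kb from that of FLCN.

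The long-arm list of cancer and growth genes held 24 genes, of which 23 had a peak (95.8%, 79.8% to 99.3%), and 1 of the 23 was at the floor. TK1, thymidine kinase of the DNA precursor salvage pathway, was highest in fold enrichment with 23.8 and 160 fragments 152 bp inside the gene, and was the one at the floor. PPM1D, a phosphatase of the DNA damage response, had 255 fragments and 15.7, and GRB2, the adaptor of receptor tyrosine kinases, had 271 fragments and 13.3. CDK12, a transcriptional kinase, had 146 fragments and 15.5, NF1, a negative regulator of RAS, had 145 and 12.7, and ERBB2, a receptor tyrosine kinase, had 144 and 11.9. The ERBB2 summit lay 669 bp upstream of the outermost start of its record, in an intron of another gene. Which start of ERBB2 is used in these cells was not tested.

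The lower end of this list by fold enrichment was RAD51D, of homologous recombination, with 43 fragments on a local input of 12.0 and a fold enrichment of 2.51. RNF43, a negative regulator of WNT receptors, was the gene without a peak, and its nearest peak was 29.9 kb away. Heights in the list ran from 40 to 271 fragments, against 26 to 57 in the short-arm list, so the 2 ranges overlapped at their ends. BRCA1 was counted through the outermost end of its GENCODE record, which lies well upstream of its usual promoter, so its value is not given.

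Genes of a photoreceptor list were counted on both arms, since OTX2 acts in photoreceptors of the retina. Not every member, such as CA4, is particular to photoreceptors. On the short arm 1 of 4 had a peak, GUCY2D, the guanylate cyclase of photoreceptors, with 64 fragments 33 bp upstream and a fold enrichment of 9.64 at the floor. AIPL1, PITPNM3 and RCVRN (recoverin) had none. On the long arm 4 of 6 had a peak, from RGS9, which speeds the recovery of the light response, with 145 fragments and 17.5, through UNC119 (154 fragments, 16.7) and CA4 (99 fragments, 11.5), to PDE6G, a subunit of the rod phosphodiesterase, with 35 fragments and 3.34. Unlike that of GUCY2D, these summits lay far upstream, at 3029 bp (RGS9), 3034 bp (UNC119), 4228 bp (CA4) and 4654 bp (PDE6G). Those counted for UNC119 and PDE6G lay in exons of other genes. PRCD and FSCN2 had none.

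Neuronal genes had a peak in 4 of 12 cases on the short arm (33.3%, 13.8% to 60.9%) and in 10 of 16 on the long arm (62.5%, 38.6% to 81.5%), and these intervals overlapped. The 4 on the short arm were DLG4, the postsynaptic scaffold PSD-95, with 76 fragments and a fold of 11.4, the vesicle SNARE gene VAMP2 with 57 and 8.61, the potassium channel subunit gene KCNAB3 with 39 and 5.95, and the synaptic adhesion gene NLGN2 with 35 and 5.36. All 4 were at the floor. The KCNAB3 summit lay 2162 bp upstream of its TSS, 105 bp inside TRAPPC1 and 83 bp upstream of CNTROB. That of NLGN2 lay 597 bp upstream and was nearer to TMEM256, at 180 bp, so neither peak is particular to the listed gene. NTN1, which encodes the axon guidance cue netrin-1, had 1 summit within the gene, and the nearest peak to its TSS was 204.1 kb away.

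On the long arm CACNG5, a regulatory subunit of AMPA receptors, was highest in fold enrichment with 19.8 and 141 fragments, followed by the calcium channel gene CACNA1G with 13.2 and 88, and KCNJ2, an inward rectifier, was lowest with 2.67 and 35. By fragments the highest was KCNJ16, of the same channel family as KCNJ2, with 156, and the lowest the potassium channel gene KCNH6 with 20. ASIC2, an acid-sensing ion channel gene, had no peak near the TSS of its record but 45 summits within the gene. MAPT, the tau gene, had 7 within the gene and none near its TSS. These summits within long genes are not part of a count at the TSS.

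Transcription factor genes had a peak in 5 of 7 cases on the short arm (71.4%, 35.9% to 91.8%) and in 16 of 28 on the long arm (57.1%, 39.1% to 73.5%), the one list in which the short-arm share was the higher, with overlapping intervals. SOX15 had 99 fragments and a fold enrichment of 14.8, the clock gene PER1 80 and 12.0, ZBTB4 75 and 11.3, MNT 43 and 6.54 and HES7, of the segmentation clock, 34 and 5.21. MNT and HIC1 stand in both this list and that of tumor suppressor genes.

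The long-arm list includes the HOXB genes, which pattern the hindbrain and trunk. A peak was present in 3 of 10, and HOXB3 and HOXB6 share 1 peak of 51 fragments, while HOXB13 had 44. Of the 18 others 13 had a peak, in order of fold enrichment from FOXJ1, of motile cilia, with 104 fragments and 15.5, the Polycomb gene CBX8 with 119 and 12.1, and SOX9 with 104 and 11.1, to DLX4 with 33 and 3.16. NEUROD2, IKZF3, TBX21, TBX4 and CBX2 had none.

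Over all lists 17 of 38 short-arm genes had a peak (44.7%, 30.1% to 60.3%), with heights from 26 to 99 fragments (median 45), and 16 of these peaks were at the floor. On the long arm 53 of 74 had one (71.6%, 60.5% to 80.6%), with heights from 20 to 271 (median 79.0), and 4 were at the floor. Both shares stood above those of all genes of the same arm, 38.7% and 63.4%, with intervals that included the arm's share on each side.

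**Figure D4:**
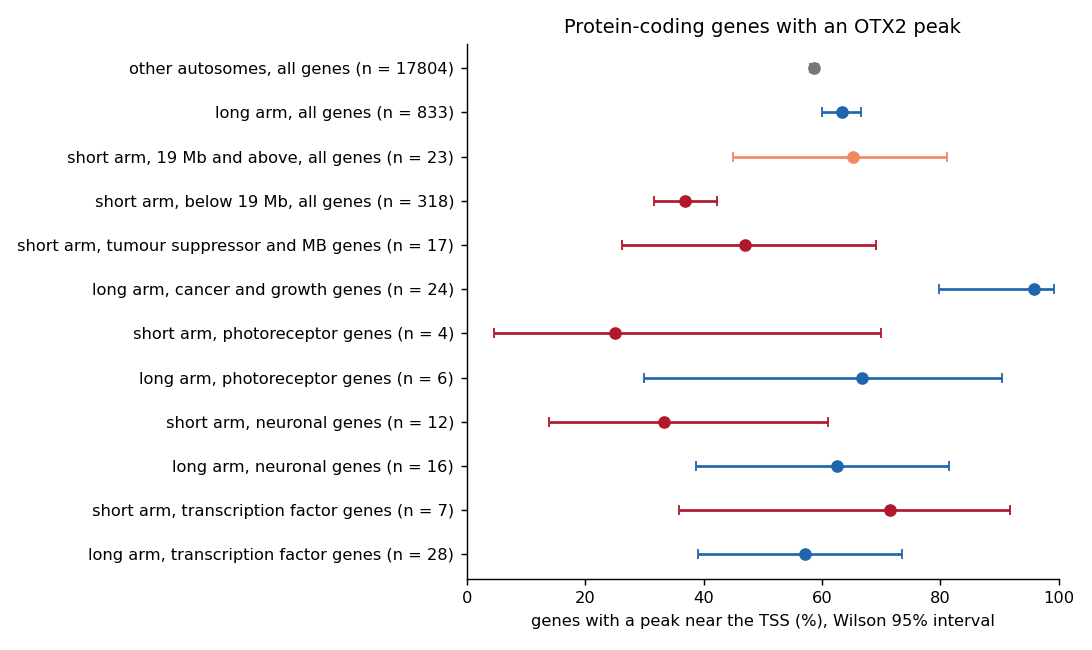
The share of genes (%, protein-coding) that had an OTX2 peak by the TSS is plotted with its Wilson 95% interval for all genes of the other autosomes and of each stretch of chromosome 17 and for each gene list by arm, with the number of genes beside each name. All genes of the short arm below 19 Mb stand at 36.8%, those of the proximal short arm at 65.2% and those of the long arm at 63.4%, and the lists of few genes have wide intervals.

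The strongest single peaks of the short arm reached the values of the long arm. By fold enrichment the first was at chr17:21227216-21228066, outside genes and 13353 bp upstream of TMEM11, a mitochondrial membrane protein gene, with 319 fragments (285.0 to 356.0), a local input of 4.12 and a fold enrichment of 46.0. The next 4 lay below 19 Mb at the floor, in introns of SHISA6 (260 fragments, 38.5), which encodes an AMPA receptor partner, and of the SNARE gene STX8 (247 fragments, 36.6), and outside genes nearest to HS3ST3B1 (234 fragments, 34.7) and COX10 (217 fragments, 32.2).

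By fragments, the 5 highest short-arm peaks all lay above 19 Mb. They were in an intron of the autophagy kinase gene ULK2 (391 fragments, 353.2 to 431.7), in an exon of the cation exporter gene SLC47A1 (362), outside genes nearest to USP22 (338), at the TMEM11 peak (319) and nearest to LGALS9B (311). LGALS9B, a galectin gene, has near-identical copies on the same arm, so reads in its neighbourhood may be shared between them, and its peak had a local input of 21.0 and a fold enrichment of 10.4. The highest peak below 19 Mb had 260 fragments.

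On the long arm the first by fold enrichment was nearest to KRT17, a keratin gene, at chr17:41635074-41635883, with 297 fragments (264.2 to 332.8) and 43.9. It was followed by a peak nearest to UTP18 (329 fragments, 40.5), one in an intron of TMEM94 (378, 39.9), one nearest to YPEL2 (328, 38.0) and one 1719 bp upstream of MRC2, a collagen receptor gene (330, 37.6). By fragments the first was in an intron of ASIC2 (417 fragments, 377.9 to 459.0), followed by peaks nearest to MAP2K6 and KCNJ2 (412 each), MPP2 (409) and SMIM36 (404). The intervals of the highest peak of each arm, at ULK2 and ASIC2, overlapped. The peaks ranked 4 and 5 by fragments had 319 (285.0 to 356.0) and 311 (277.4 to 347.6) on the short arm. On the long arm they had 409 (370.3 to 450.6) and 404 (365.6 to 445.4). Equal ranks were taken from 622 short-arm and 3984 long-arm peaks, so they are not like for like, and these intervals do not compare the arms.

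Among TSS windows the order was led on the short arm by AKAP10, an anchor of protein kinase A, with 249 fragments and a fold of 21.9, and ALDH3A2, fatty aldehyde dehydrogenase, with 229 and 21.7. Both lie above 19 Mb, with local inputs of 7.39 and 6.79. SLC47A2, also above 19 Mb, had 100 and 14.9, SOX15 99 and 14.8, and SERPINF1, which encodes the neurotrophic factor PEDF, 96 and 14.4, each at the floor. The long arm was led by MRC2 with 37.6, ABCA9 with 360 fragments and 32.6, KCTD2 with 337 and 31.1, AARSD1 with 278 and 30.9 and SMARCD2 with 282 and 30.3, and all 5 exceeded the first gene of the short arm. They were the first of 528 genes with a peak, against 132 on the short arm, so the ranks are not like for like. The KCTD2 and AARSD1 summits lay far upstream, at 4491 bp and 4298 bp, that of AARSD1 in an exon of another gene.

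The densest windows differed in content as well. On the long arm the window from 57 to 58 Mb held 135 peaks among 6 genes, all with a peak near the TSS, and 63 summits lay within MSI2, which encodes an RNA-binding protein of neural progenitors. Windows from 67 to 68 Mb and from 73 to 74 Mb held 104 peaks each, the first with HELZ, PITPNC1 and BPTF and the second with SSTR2 and SDK2. On the short arm the densest window below 19 Mb ran from 7 to 8 Mb, with 47 peaks, 41 of them at the floor, among 69 genes including DLG4, KDM6B and SOX15, of which 36 had a peak. The densest of the arm, from 19 to 20 Mb, held 91 peaks among 14 genes, of which 10 had a peak.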

How the data were processed

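The authors mapped the reads of 1 OTX2 ChIP and 1 input library to GRCh38 with bowtie2 2.2.4, called peaks with MACS2 2.1.0.20140616 (q-value 0.05, effective genome size 2700000000, 1 fragment per position) and masked blacklisted regions. The deposited pileup is a signal, the coverage at the summit scaled so that 1 ChIP fragment adds 0.735. That is more than scaling to the depth of the shallower input library alone would give, and local inputs are on the same scale. Fold enrichment was deposited as a ratio of pileup to local input after adding 1 to both, and each peak's q-value was deposited as −log10, while the p-value column was not used here.

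Of 84980793 ChIP and 32292980 input fragments the authors kept 61259377 and 22521186, and the shallower input sets how finely a local input is known. Pileups were divided by 0.735 per fragment (100% whole within 0.006). Densities ran from the first to the last peak of an arm, without removing unmappable sequence. Intervals were Wilson, Newcombe, exact binomial or Poisson and order-statistic. GENCODE 44 gene records with their recorded GRCh38 positions placed all genes (1174 on chromosome 17), and RefSeq windows of 824 of 1169 chromosome 17 protein-coding genes gave the promoters. Scripts were tested on simulated data and ran in Python 3.11.15 (numpy 2.4.6, pandas 2.3.3, matplotlib 3.10.9, scipy 1.17.1).

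The members, gene lists and the rule for named genes (on each arm the 5 first peaks by fold enrichment and by fragments, the 5 first genes, the 3 densest windows, and members of the lists with their extremes) were chosen with earlier results of these data known. The 19 Mb split, the promoters, the genes beside the change along the short arm and the list members other than the extremes were chosen after their values were seen. Alternatives were other thresholds of q and fold enrichment, trimmed arms, other spans, windows and TSS definitions and other definitions of the floor. 1 gene of the short-arm lists is not reported here, and the list counts leave it out.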

Additional observations from a re-analysis of the deposited data

How the results depend on the processing

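The list comes from 1 ChIP and 1 input library, so single values have no replicate error, and a local input below the floor cannot be seen. No paired analysis was possible because each condition had 1 library. Over 37 alternatives to 6 arm comparisons, 25 stayed within the counting interval, 11 moved beyond it in the same direction and 1 reversed. A fold enrichment of at least 5 gave a density ratio of 2.11, a height ratio of 1.62, a fold enrichment ratio of 1.06 (0.997 to 1.11), which is the reversal, a floor difference of -64.38 points and a gene difference of 14.9 points. That threshold itself removes the low folds that were more common on the long arm. The density ratio was 3.11 between medians of 1 Mb windows. Summits over 5 kb from a TSS gave a floor difference of -54.95 points. Of the alternatives chosen after seeing the data, the short arm below 19 Mb alone gave a density ratio of 3.01, a height ratio of 1.42 and a floor difference of -82.48 points, peaks of at least 100 fragments gave a density ratio of 4.21, and a floor within 0.1% gave -53.27 points. The ratio of median local inputs was 1.76 throughout, and its alternatives are counted among the 25. However, the short-arm median is held at the floor, so this says nothing about the stability of that ratio.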
